A study of Sus scrofa with 12 samples.

Results

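The glycolysis enzymes described here are 10 genes that were found by their exact symbols in the ovary gene table, HK1, HK2, GPI, ALDOA, TPI1, GAPDH, PGK1, ENO1, PKM and LDHA. They were 10 of the 29884 genes in the table, and all 10 passed the filter of at least 1 FPKM (fragments scaled to transcript length and to library size) in at least 3 libraries that left 12260 genes for testing. The left ovaries of 6 multiparous sows from a commercial herd had been frozen after slaughter, 4 days after the fourth delivery, and 1 library of total RNA without ribosomal RNA was made from each. The 3 sows of small litter size (SLS) gave ZD2, ZD3 and ZD12, and the 3 of large litter size (LLS) gave ZD5, ZD7 and ZD8. The labels name no treatment, and the breed, the age and the stage of the ovarian cycle are not given in the sources used here. Each library came from ovary tissue and not from sorted cells, so it can mix follicles, corpora lutea, stroma and vessels. In such bulk RNA, fewer cells of a type and less RNA per cell cannot be told apart.

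Glycolysis splits glucose into pyruvate in the cytosol. Hexokinase traps glucose as glucose 6-phosphate, the following enzymes rearrange it and cut it into triose phosphates, and the later enzymes oxidise these and pass phosphate to ADP. Lactate dehydrogenase then turns pyruvate and lactate into each other, and in the ovary the granulosa and luteal cells are known to use much glucose, while the oocyte depends on pyruvate from the cells around it.

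Read totals recovered from the FPKM values were between 51703531 and 60903268 in the ovaries other than ZD8, and 32272803 in ZD8. The 10 enzymes together took 0.765% of the reads in ZD2 (95% Wilson interval 0.762 to 0.767), 0.564% in ZD3 (0.562 to 0.566), 0.71% in ZD12 (0.708 to 0.713), 0.603% in ZD5 (0.601 to 0.605) and 0.712% in ZD7 (0.71 to 0.715). In ZD8 they took 0.259% (0.258 to 0.261), so this LLS ovary lay below the other ovaries by far more than counting error, which is all that these intervals cover. ZD8 also stood apart in cell type markers. Of the 6 luteal marker genes that passed the filter (STAR, CYP11A1, HSD3B1, SCARB1, LHCGR and PTGFR), all 6 were lowest in ZD8. The summed FPKM of the luteal list was 9167 to 10808 in SLS and 124 to 12191 in LLS, with 124 in ZD8 and none of the 6 at 0. Endothelial markers were lowest in ZD8 for 4 of 5 genes, with a sum of 115 against 244 to 371 in the other ovaries, and red blood cell markers for 2 of 2, with 28.8 against 53.4 to 318. The theca list was highest in ZD8 for 2 of 2 genes (415 against 9.31 to 74.4), the oocyte list for 3 of 3 (125 against 6.49 to 22.7; of these ZP4 passed the filter only through ZD8), the macrophage list for 4 of 4 (33.7 against 16.2 to 28.4) and the T cell list for 3 of 3 (12.6 against 1.91 to 4.46). Over all tested genes ZD8 was the highest of the 6 ovaries in 44.6% and the lowest in 26.3%. The fibroblast sum of ZD8 was 2921, within the 1797 to 6364 of the others, as were the smooth muscle sum of 914 (314 to 1796) and the epithelial sum of 20.6 (4.61 to 37.7). Single genes of these lists stood apart. DCN (1854 against 363 to 859 FPKM) and PDGFRA (220 against 93.9 to 123) were highest in ZD8, and COL1A1 and COL1A2 were lowest. Of the smooth muscle genes, MYH11 (190 against 15.5 to 47.1) and DES were highest in ZD8 and none was lowest. Of 3 epithelial genes 1 was highest and none lowest. Of 5 granulosa genes 3 were highest in ZD8 (FSHR at 10.8, AMH at 12.01 and FOXL2 at 37.8 FPKM), and the lower sum of the list, 130.0 against 177 to 772, came from INHA, at 66.4 against 162 to 726. Skeletal muscle markers, of a tissue that makes muscle forms of these enzymes, summed to 0.286 in ZD8 and to 1.37 to 4.00 elsewhere. The values of the 10 enzymes are therefore given with and without ZD8.

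In the RefSeq annotation of Sscrofa11.1, the build to which the reads were mapped, the 10 genes lie on 6 autosomes and on the X chromosome. HK1 spans chr14:72383328-72460927 on the plus strand, HK2 chr3:68155656-68231187 on the minus strand, GPI chr6:44038374-44069331 on the plus strand and ALDOA chr3:18246036-18260167 on the plus strand. TPI1 (chr5:63839473-63842853) and GAPDH (chr5:64129678-64135194) both lie on the minus strand of chromosome 5. PGK1 spans chrX:62187472-62210321 on the plus strand, ENO1 chr6:69385879-69401664 on the minus strand, PKM chr7:60971807-61032780 on the plus strand and LDHA chr2:40814163-40827284 on the minus strand. Other annotated genes overlap GPI, ALDOA, GAPDH and ENO1 in part, but all were at most at 7.14 FPKM (IFFO1, opposite GAPDH, in ZD8). How the counting treated strand and reads that fit several places is not given in the sources used here.

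Because the 10 genes turned out to be low together in ZD8, the sequence before their start sites is shown for 4 of them, both hexokinases, which were at very different levels, and PGK1 and LDHA, which held the most matches to the letters in capitals among the windows that are not covered by an exon. Each run holds the bases directly before the start of the curated RefSeq transcript, read 5′ to 3′ on the strand of the gene, and capitals mark ACGTG or GCGTG on either strand. These letters are the core that hypoxia-inducible factors are known to bind. The windows are chr14:72383078-72383327 (HK1), chr3:68231188-68231437 (HK2), chrX:62187222-62187471 (PGK1) and chr2:40825343-40825579 (LDHA), the last of which stops 13 bases before the start because those bases lie in an exon of another LDHA transcript.
HK1: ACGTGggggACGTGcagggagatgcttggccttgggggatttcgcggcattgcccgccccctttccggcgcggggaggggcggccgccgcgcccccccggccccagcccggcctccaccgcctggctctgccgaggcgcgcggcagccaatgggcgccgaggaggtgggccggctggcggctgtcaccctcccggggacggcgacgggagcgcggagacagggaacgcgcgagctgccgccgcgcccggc
HK2: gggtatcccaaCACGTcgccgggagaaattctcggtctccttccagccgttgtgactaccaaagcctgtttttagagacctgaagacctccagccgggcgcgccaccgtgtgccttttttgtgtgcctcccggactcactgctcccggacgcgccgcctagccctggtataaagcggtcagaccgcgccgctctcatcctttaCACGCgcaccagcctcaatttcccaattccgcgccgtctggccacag
PGK1: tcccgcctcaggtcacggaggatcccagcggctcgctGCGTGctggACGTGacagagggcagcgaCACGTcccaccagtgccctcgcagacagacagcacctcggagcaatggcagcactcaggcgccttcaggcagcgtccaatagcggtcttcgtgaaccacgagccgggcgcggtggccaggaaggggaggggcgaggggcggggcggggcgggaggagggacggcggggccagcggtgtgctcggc
LDHA: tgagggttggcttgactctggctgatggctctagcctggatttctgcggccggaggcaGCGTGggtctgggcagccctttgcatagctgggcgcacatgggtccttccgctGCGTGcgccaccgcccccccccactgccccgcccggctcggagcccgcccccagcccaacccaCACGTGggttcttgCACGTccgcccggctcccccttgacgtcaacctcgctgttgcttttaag
A curated transcript was annotated for 7 of the 10 enzymes, HK1, HK2, GPI, TPI1, GAPDH, PGK1 and LDHA. In the 250 bases before the start, 5 of these 7 held ACGTG or GCGTG on either strand, against 50.7% of the 2800 tested genes with such a transcript and 45.6% of all 3980, and GPI and TPI1 did not. LDHA held 5 matches, at 192, 139, 76, 75 and 62 bases before its start, of which those at 76 and 75 are the same CACGTG read on both strands. PGK1 held 3, at 213, 204 and 185 bases, and each hexokinase 2. GGGCGG, the box bound by SP1, occurred on either strand in 6 of the 7, in 61.5% of the tested genes and in 52.5% of all 3980, and HK2 was the one without it. TATAAA on either strand occurred in HK2 alone among the 7, in 7.82% of the tested genes and in 442 of all 3980. GC content was 79.2% in the HK1 window and 60.8% in the HK2 window. A match describes the letters in this window and is not a measured binding site, and its bearing on the levels in ZD8 was not tested.

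The level of the 10 enzymes, as FPKM, spanned from a mean of 394 for ENO1 to 5.45 for HK2 over the 6 ovaries. ENO1 was followed by GAPDH (324), PKM (315), ALDOA (284), GPI (273), TPI1 (167), PGK1 (145), HK1 (87.8), LDHA (60.6) and HK2. Neighbours from ENO1 down to PGK1 changed places between ovaries, as ALDOA and GPI, with ALDOA higher in 3 of 6. From PGK1 downwards the order was the same in each of the 6 ovaries, with PGK1 above HK1, HK1 above LDHA and LDHA above HK2. The upper part of this order depends on the transcript length by which reads were divided, which was that of the longest annotated transcript. For GAPDH this is a transcript of 4717 nt without a coding sequence, whereas its coding transcripts have 1305 and 1419 nt. For PKM it is 1 of 22 transcripts, with 4481 nt, and 9 of the 22 end at or before position 60999860, ahead of the block from 61006974 in which 11 others lie, and 2 span both. Reads from the upstream block were counted as PKM under this annotation. They stay in its value under either length, so no PKM level here is that of the downstream block alone. With the median length of each gene's coding transcripts, GAPDH came first with 1122 FPKM, 3.46 times its deposited value, followed by ALDOA (548), PKM (523) and ENO1 (397). GPI, TPI1, PGK1, HK1, LDHA and HK2 kept their places below these, with LDHA at 74.6. A ratio of FPKM between ovaries does not depend on this length, whereas a log2 fold change of FPKM + 1 does, most for low levels.

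**Figure D1:**
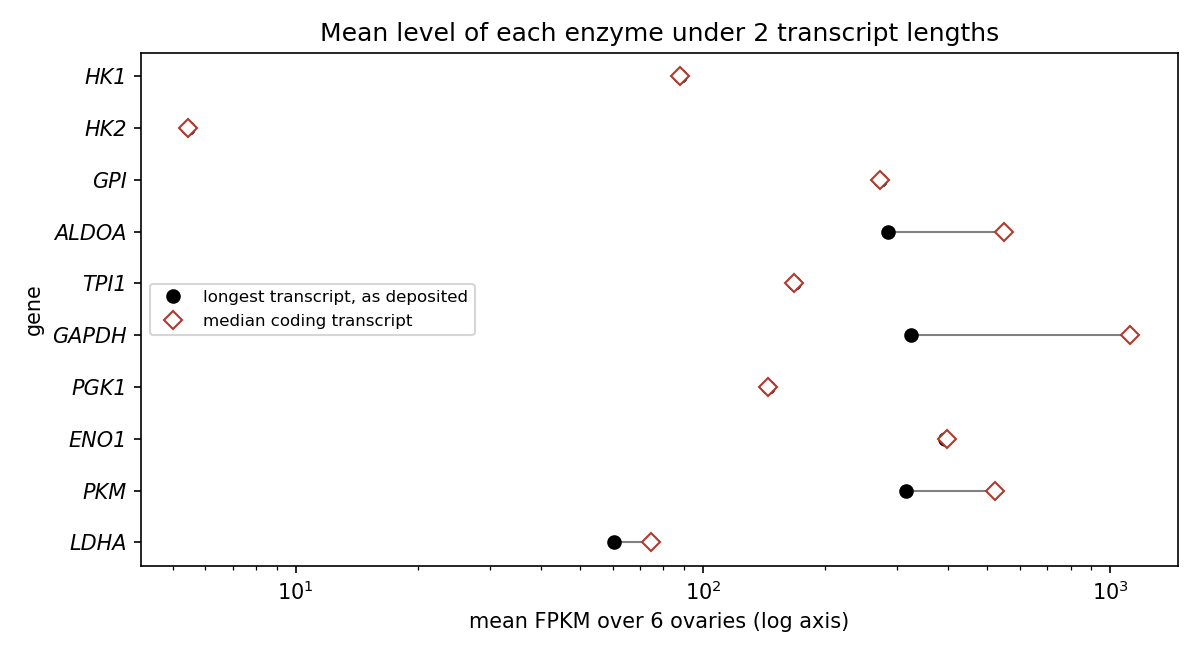
Mean FPKM of each enzyme over the 6 ovaries on a log axis, divided by the length of the longest transcript as deposited (filled circles) or by the median length of the coding transcripts (open diamonds). GAPDH moves from 324 to 1122, ALDOA from 284 to 548 and PKM from 315 to 523, and the genes with a single transcript stay in place.

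The hexokinases open the pathway. HK1, the form that most tissues use, was at 114, 107 and 90.7 FPKM in SLS and at 79.3, 109 and 27.0 in LLS, each in the order in which the ovaries were named above. The groups overlapped through ZD7, and ZD8 was far below each of the other ovaries. HK2, the form that insulin and hypoxia are known to raise, was at 6.24, 4.65 and 2.18 in SLS and at 9.77, 8.15 and 1.71 in LLS. ZD5 and ZD7 were above each SLS ovary, and ZD8 was the lowest of all. HK2 rested on 172 to 1754 reads per library, the fewest of the 10 genes, and each of the other 9 rested on at least 1758.

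The next steps rearrange the sugar and cut it. GPI, which turns glucose 6-phosphate into fructose 6-phosphate, was at 342, 258 and 263 FPKM in SLS and at 345, 358 and 70.8 in LLS. ALDOA, which cuts fructose 1,6-bisphosphate, was at 330.2, 232 and 333 in SLS and at 319, 378 and 115 in LLS. In both genes ZD7 held the highest value and ZD8 the lowest, so that the LLS group enclosed the SLS group. TPI1, which turns the triose phosphates into each other, was at 209.6, 134 and 235 in SLS and at 148, 193 and 83.3 in LLS. Here ZD3 was low among the SLS ovaries and below both ZD5 and ZD7.

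The later steps yield NADH and ATP. GAPDH, which oxidises glyceraldehyde 3-phosphate, was at 448, 292 and 381 FPKM in SLS and at 328, 381 and 113 in LLS. PGK1, which forms the first ATP of the pathway, was at 188, 154 and 136 in SLS and at 167, 163 and 59.2 in LLS. In these genes ZD5 and ZD7 lay within the SLS range and ZD8 below it. ENO1, which makes phosphoenolpyruvate, was at 483, 365 and 560.2 in SLS and at 287, 408 and 259 in LLS. ENO1 differed least between ZD8 and the rest, and ZD5 was almost as low as ZD8. PKM, pyruvate kinase, was at 397, 299 and 380.0 in SLS and at 296, 358 and 161 in LLS. LDHA, the lactate dehydrogenase subunit known to favour lactate formation, was at 61.7, 78.1 and 66.8 in SLS and at 71.4, 62.0 and 23.3 in LLS. Without ZD8, LDHA was the most even of the 10 genes, with a ratio of 1.27 between its highest and lowest ovary, and HK2 the most uneven, with 4.48.

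**Figure D2:**
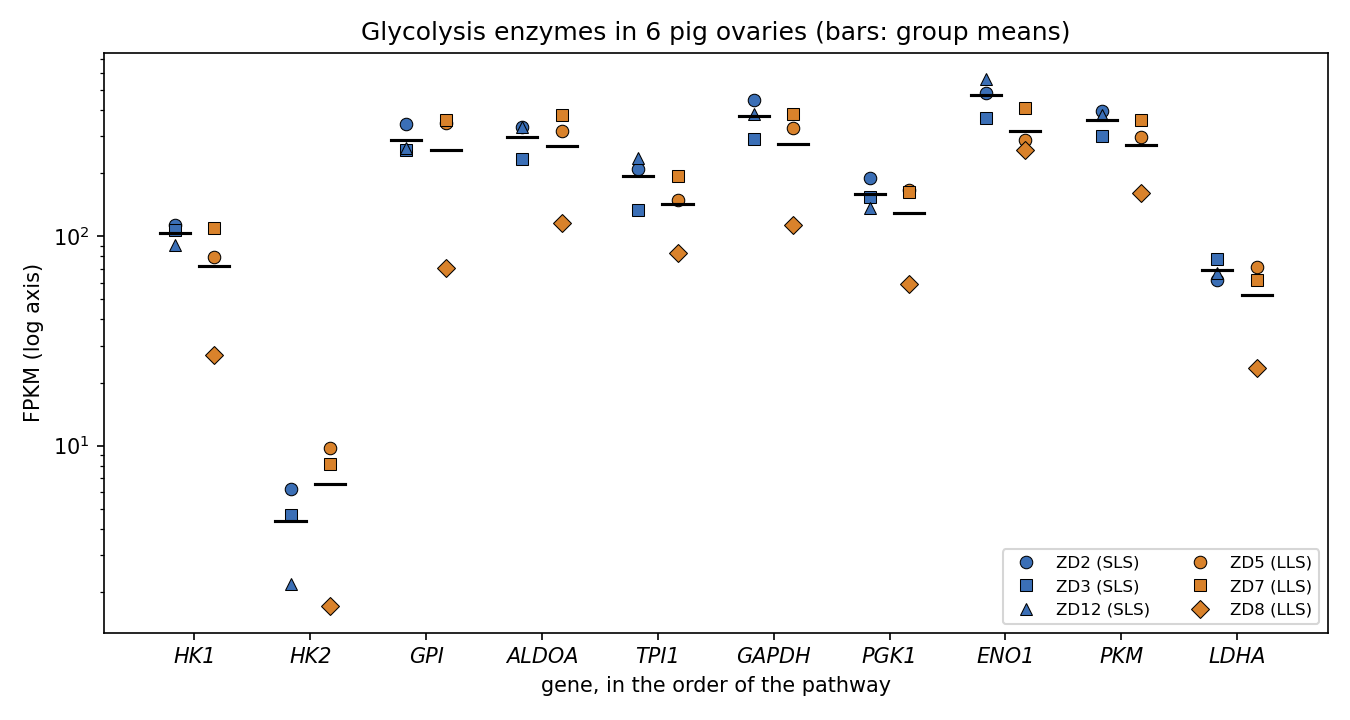
FPKM on a log axis of the 10 enzymes in the order of the pathway, in the SLS ovaries (blue) and the LLS ovaries (orange), with 1 point per ovary and a bar at each group mean. The diamond of ZD8 is the lowest point in all 10 genes, at 27.0 for HK1 and 70.8 for GPI, and the other LLS ovaries lie among or above the SLS ovaries in most of them.

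The study's comparison is between ovaries of LLS and SLS sows. None of the 10 enzymes differed between LLS and SLS beyond the spread between ovaries. The group means were lower in LLS for 9 of the 10, by log2 fold changes from -0.73 (HK1) to -0.29 (ALDOA), against 47.4% of all genes tested, and higher for HK2. HK1 averaged 104 ± 11.7 FPKM (SD, n = 3) in SLS and 71.9 ± 41.7 in LLS, a log2 fold change of -0.73 ± 0.50 (SE). ENO1 averaged 469.5 ± 98.3 in SLS and 318 ± 79.4 in LLS, with -0.57 ± 0.43, and HK2 averaged 4.36 ± 2.04 and 6.54 ± 4.26, with 0.35 ± 0.56. All fold changes here are of FPKM + 1, so that those of low genes such as HK2 come out too small. The median over the 10 was -0.48, and over all 12260 genes it was 0.02.

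By limma with Benjamini-Hochberg adjustment over the 12260 genes, 0 of the 10 were called (adjusted p under 0.05, with a log2 fold change beyond 1 in either direction), as were 0% of all genes, and the adjusted p was 0.9994 for each of the 10. At an unadjusted p under 0.05 the count was 0 of 10, against 1.76% of all genes, and the unadjusted p of the 10 ran from 0.179 (HK1) to 0.591 (ALDOA). In no enzyme did the groups stay apart, with all LLS ovaries lower (3.17% of all genes) or all higher (1.95%). Exact two-sided permutation tests of single enzymes gave p from 0.2 (ENO1 and PKM) to 1.0 (GPI), where 3 ovaries against 3 cannot go below 0.1.

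The lower LLS means rested on ZD8. When ZD8 was left out, the median log2 fold change over the 10 enzymes was -0.05, against -0.10 over all genes, and 6 of 10 means were lower in LLS, against 65.8% of all genes. GPI then stood at 0.30 ± 0.28, ALDOA at 0.24 ± 0.30 and PGK1 at 0.06 ± 0.26 (log2 fold change ± SE), all with the opposite sign. ENO1 kept most of its difference, with -0.43 ± 0.32, while HK1 went to -0.15 ± 0.26 and GAPDH to -0.06 ± 0.30. HK2 went to 0.97 ± 0.35, with the 2 remaining LLS ovaries above all 3 SLS ovaries, at an unadjusted limma p of 0.0201 and an adjusted p of 0.597. It was the 1 enzyme of 10 with an unadjusted p under 0.05, against 5.92% of all genes in that fit. None of the 10 was called there, and 20 of all genes were (0.167%). The SD of log2(FPKM + 1) between the ovaries of a group, as a median over the 10 enzymes, was 0.26 in SLS and 0.89 in LLS. Over all tested genes it was 0.31 and 0.45.

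**Figure D3:**
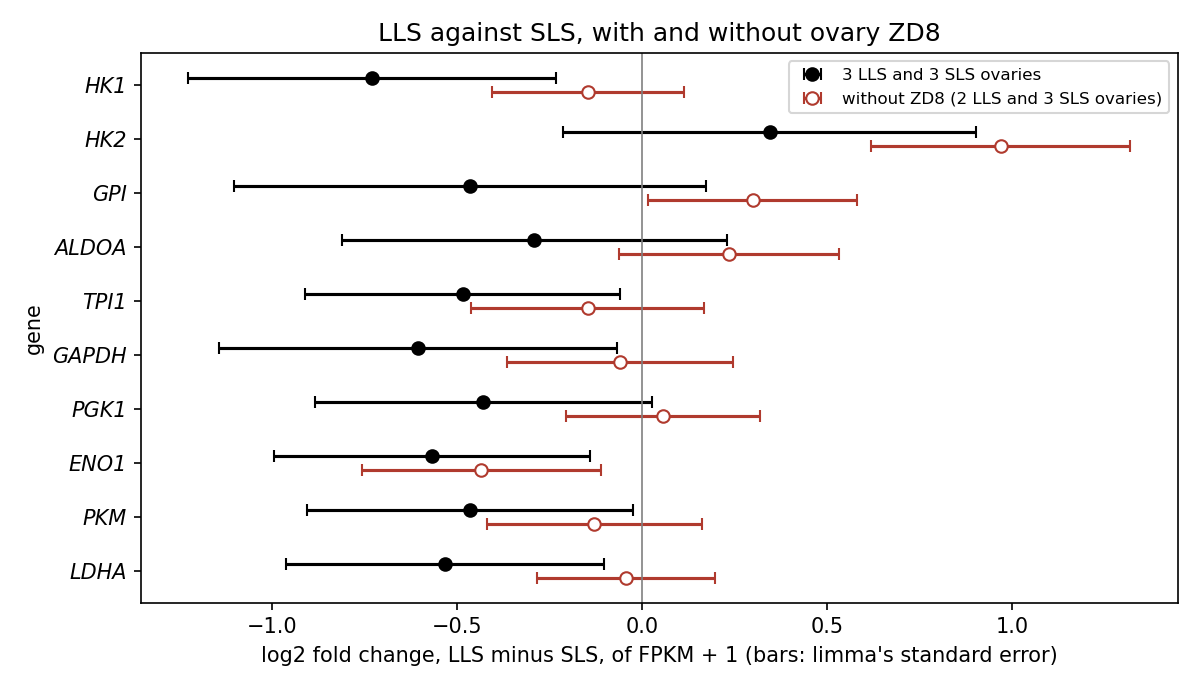
Log2 fold change of FPKM + 1, LLS minus SLS, of each enzyme with limma's standard error as bars, for all 6 ovaries (filled) and without ZD8 (open). With all ovaries 9 of 10 points lie below 0, and without ZD8 the points of GPI, ALDOA and PGK1 cross to the other side and HK2 moves from 0.35 to 0.97.

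All 10 enzymes were lowest in ZD8 of the 6 ovaries, as were 26.3% of all tested genes. The median of the other ovaries was from 1.58 times (ENO1) to 4.84 times (GPI) the level in ZD8. HK1 was 3.96 times, GAPDH 3.37 times, ALDOA 2.87 times and LDHA 2.86 times as high in the median of the others as in ZD8. In 6 of the 10 (HK1, GPI, ALDOA, GAPDH, PGK1 and LDHA) ZD8 held under 1/2 of the lowest value of any other ovary, as did 7.5% of all tested genes. On the scale of log2(FPKM + 1), ZD8 minus the median of the others was -1.46 as a median over the 10 enzymes and 0.23 over all tested genes. The luteal and endothelial markers were low in the same library, and their part in the low enzyme levels was not tested.

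The enzymes varied together over the 6 ovaries and far less so without ZD8. Pearson's r of log2(FPKM + 1) between pairs of enzymes had a median of 0.88 over 45 pairs and 6 ovaries, with 44 pairs above 0. Over the 5 ovaries without ZD8 the median was 0.16 and 27 of 45 pairs were above 0. GAPDH with PKM had 0.99 over all ovaries. In the 5 ovaries the pairs ranged from -0.93 (GAPDH with LDHA) to 0.94 (TPI1 with PKM). These values describe few ovaries that share their library's depth and cell makeup, and no test was made of them.

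Most steps have further isozyme genes. The share of the member gene in the summed FPKM of the isozyme genes compared was tested at 4 steps by the exact permutation test. With 3 ovaries against 3 its p cannot go below 0.1. The test therefore could not have called any of the 4 shares different between LLS and SLS, before or after adjustment. Of the 4 shares, only that of ALDOA kept the groups apart. ALDOA made up 96.0%, 96.1% and 97.1% of the sum of ALDOA and ALDOC in ZD2, ZD3 and ZD12, and 94.2%, 93.5% and 92.6% in ZD5, ZD7 and ZD8. Its groups did not overlap, with 96.4 ± 0.62% in SLS and 93.4 ± 0.79% in LLS (SD, n = 3), at the smallest exact two-sided p that the design allows, 0.1, and 0.4 when adjusted over the 4 shares. The difference of -3.02 percentage points became -1.66 with shares of reads, which do not divide by the ALDOA length of 3148 nt. ALDOC, the brain form, was at 13.7, 9.37 and 9.78 FPKM in SLS and at 19.8, 26.3 and 9.24 in LLS. ALDOC was higher in ZD5 and ZD7 than in any SLS ovary, whereas in ZD8 it was just below the lowest SLS ovary and ALDOA was low.

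HK1 made up 91.7%, 92.8% and 94.8% of the sum of HK1, HK2, HK3 and HKDC1 in SLS and 86.9%, 91.8% and 77.8% in LLS, with an exact p of 0.2 and 0.4 adjusted. In ZD8 the rest came mainly from HK3, a form known from blood cells, at 5.92 FPKM against 1.27 to 2.58 elsewhere. ENO1 made up 98.5%, 98.6% and 98.4% of the enolases in SLS and 97.1%, 98.8% and 94.0% in LLS, with an exact p of 0.4 and 0.533 adjusted. ENO2, the neuronal form, was at 15.1 FPKM in ZD8 against 4.03 to 7.60 in the others. LDHA made up 29.6%, 36.3% and 27.7% of the lactate dehydrogenases in SLS and 42.5%, 37.0% and 10.03% in LLS, with an exact p of 1.0. By share of reads it made up 41.7%, 49.3% and 39.4% in SLS and 55.8%, 50.0% and 15.9% in LLS, so that LDHA was the larger part in ZD5 by reads and in no ovary by FPKM. LDHB, the subunit known from heart, was at 147, 137 and 174 FPKM in SLS and at 96.4, 105.6 and 207 in LLS, so that it was highest in the ovary where LDHA was lowest. LDHB exceeded LDHA by 8.88 times in ZD8 and by 1.35 to 2.61 times in the other ovaries. Without ZD8 the LDHA share was 8.54 percentage points higher in LLS than in SLS, against 1.36 points lower with it, and without the SLS ovary ZD3 it was 1.204 points higher. The LDHB symbol has 2 loci in the annotation, a gene of 8 exons on chromosome 5 and a copy of 1 exon on chromosome 2, and the whole reads matched the transcript length on chromosome 5. Reads that fit both could have been split, so LDHB is uncertain. For 3 other members the member made up at least 99.9% of its pair (GAPDH with GAPDHS, PGK1 with PGK2 and PKM with PKLR), and PGK2 was listed at 0 in all ovaries.

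**Figure D4:**
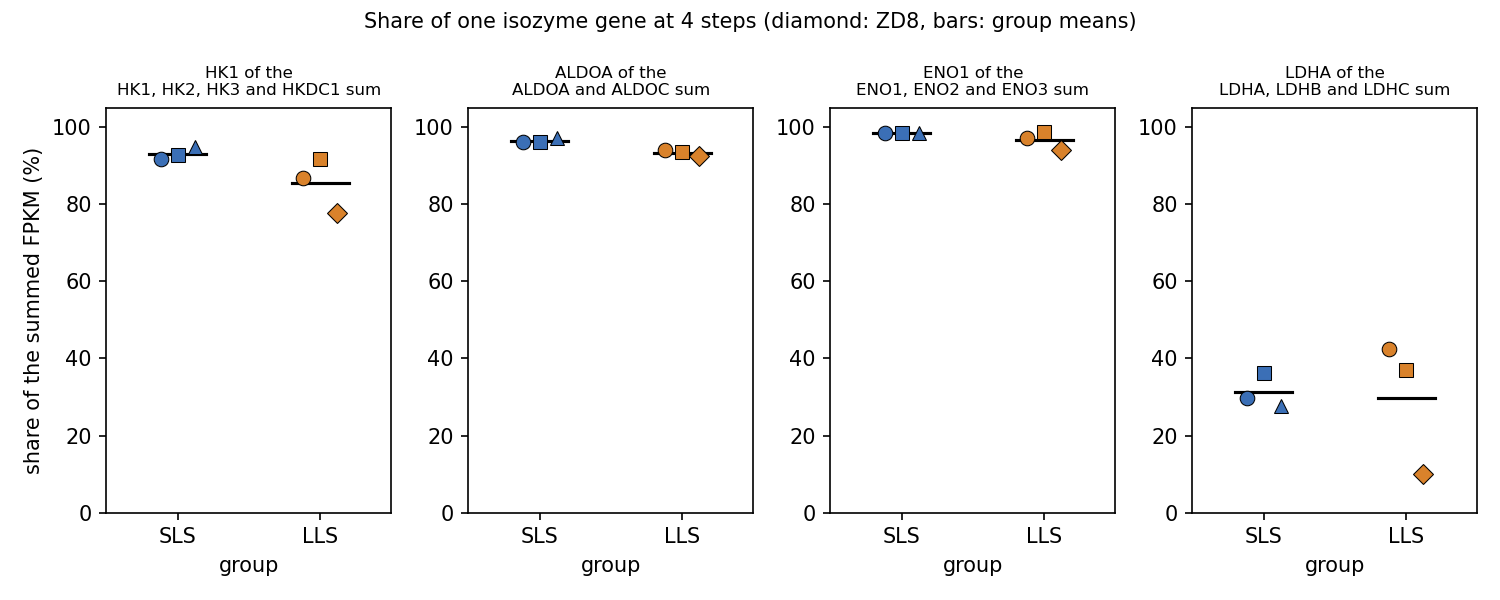
Share of HK1, ALDOA, ENO1 and LDHA in the summed FPKM of the isozyme genes compared, in percent, with 1 point per ovary and a bar at each group mean. The LDHA share of ZD8 (diamond) is 10.03% and its HK1 share 77.8%, and the ALDOA shares of LLS (92.6 to 94.2%) lie below those of SLS (96.0 to 97.1%).

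Other genes around the pathway were compared in 8 lists. Of their 65 tested genes, limma called 0 between LLS and SLS, 2 had an unadjusted p under 0.05 (SLC16A3 and PDK4), which is 3.08% against 1.76% of all tested genes, and the adjusted p was 0.9994 for each gene named here. The LLS ovaries were all below the SLS ovaries in 4 of the 65 (SLC16A3, PCK2, FBP1 and ADM), or 6.15% against 3.17% of all tested genes, and all above them in 1 (PYGB), or 1.54% against 1.95%. Without ZD8, 9 of the 65 had an unadjusted p under 0.05, or 13.8% against 5.92% of all genes, and none was called. The cell type marker lists had a larger share in that fit, with 13 of 43 tested genes, or 30.2%. Of the 11 other glycolysis genes that passed the filter, 4 were lowest in ZD8 and 4 highest, with a median of 0.20 for ZD8 minus the median of the others on the log2 scale. PGAM1, the mutase between PGK1 and ENO1, was at 212, 171 and 158 FPKM in SLS and at 169, 197 and 63.6 in LLS, and so was lowest in ZD8 like the 10 enzymes. PFKM, PFKL and PFKP, which commit sugar to the pathway, were not lowest there. In ZD8 they were at 14.5, 22.1 and 13.9 FPKM, against 6.59 to 11.05, 15.9 to 30.0 and 6.97 to 14.2 in the other ovaries, and these 3 genes and PGAM1 were picked after their values were seen. The genes with the smallest p in this list were ALDOC, with a log2 fold change of 0.61 ± 0.39 (SE), ENO3, with -0.35 ± 0.29, and ENO2, with 0.47 ± 0.43. Without ZD8 they went to 1.01 ± 0.27 (unadjusted limma p of 0.0036, adjusted 0.275), -0.48 ± 0.25 and 0.04 ± 0.32.

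Carriers bring glucose in and lactate out. SLC16A3, the lactate exporter MCT4, was at 9.89, 5.50 and 11.4 FPKM in SLS and at 2.58, 4.08 and 2.55 in LLS. The groups did not overlap, with a log2 fold change of -1.25 ± 0.34 (SE) and -1.16 without ZD8, and the unadjusted limma p of 0.00551 did not pass adjustment (0.9994). Of 44 tested cell type markers, INHA (-1.86), LHCGR (-1.28) and PECAM1 (-0.96) were also lower in all LLS ovaries than in SLS, which is 6.82% against 3.17% of all tested genes, and EPCAM (2.66) was higher, or 2.27% against 1.95%. Without ZD8, limma called EPCAM (3.47, adjusted p of 0.0221), but some other genes of the same lists had the opposite sign, with KRT8 at -1.88 and CDH1 at -0.68 beside EPCAM, FSHR at 0.46 and INHBA at 0.43 beside INHA, STAR at 0.61 and PTGFR at 0.79 beside LHCGR, and VWF at 0.61 beside PECAM1. Below 0 in that fit were 2 of 5 granulosa genes, INHA and FOXL2 (-1.08). So were 3 of 6 luteal genes, LHCGR, CYP11A1 (-0.10) and HSD3B1 (-0.12), and 2 of 5 endothelial genes, PECAM1 and CDH5 (-0.30). The smooth muscle genes had lower LLS means in 4 of 5 with ZD8 and in 5 of 5 without it, from -1.41 (CNN1) to -0.84 (MYH11), at unadjusted limma p of 0.00485 to 0.0278 and adjusted p of 0.313 to 0.699. The part of these markers in the SLC16A3 difference was not tested. SLC2A3, the glucose carrier GLUT3, was at 53.8, 61.4 and 42.0 in SLS and at 127, 148 and 22.1 in LLS, higher in ZD5 and ZD7 than in SLS and lowest in ZD8, as were HK2 and ALDOC. Without ZD8 its log2 fold change was 1.39 ± 0.26, at an unadjusted limma p of 0.00034 and an adjusted p of 0.0914, and that of SLC16A1, a lactate carrier, was 0.75 ± 0.26 (0.0162 and 0.542). Both were chosen after their values were seen. Of the 7 carrier genes that passed the filter, 6 were lowest in ZD8, and SLC2A8 (-0.32 ± 0.32) and SLC16A7 (-0.25 ± 0.29) followed SLC16A3 by p. These 2 went to -0.17 and -0.14 without ZD8.

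At the fate of pyruvate, 7 of 14 genes were lowest in ZD8 and 3 highest. PDK4, a kinase that shuts pyruvate dehydrogenase, was at 15.2, 27.4 and 17.2 FPKM in SLS and at 10.2, 7.74 and 15.3 in LLS, with a log2 fold change of -0.80 ± 0.34 (SE) at an unadjusted limma p of 0.0462, and PC (-0.52 ± 0.31) and PDK3 (-0.34 ± 0.39) followed. Without ZD8, PDK4 was at -1.04, PC at -0.51 and PDK3 at 0.09. The 3 tested genes of gluconeogenesis had lower means in LLS, PCK2 (-0.64 ± 0.29), FBP1 (-0.39 ± 0.27) and G6PC3 (-0.40 ± 0.51), and the LLS ovaries were all below the SLS ovaries in PCK2 and FBP1. Without ZD8 the mean of G6PC3 was higher in LLS (0.22), while PCK2 (-0.59) and FBP1 (-0.33) were still lower. Of 6 genes of the pentose phosphate pathway, which draws on glucose 6-phosphate for NADPH, 3 were lowest in ZD8. PGD, which yields NADPH, was at 120.1, 98.4 and 106.7 in SLS and at 109, 131 and 36.6 in LLS, and TALDO1 and TKT were low in ZD8 too, at 45.5 and 48.2 against 125 to 157 and 82.7 to 118. Their log2 fold changes were -0.41 ± 0.48 (PGD), -0.58 ± 0.46 (TALDO1) and -0.39 ± 0.38 (TKT), and without ZD8 0.15, -0.06 and -0.05. Among 8 glycogen genes 4 were lowest and 3 highest in ZD8, and PYGB (0.48 ± 0.31), PYGM (-0.43 ± 0.33) and PYGL (-0.33 ± 0.32) had the smallest p. The LLS ovaries were all above the SLS ovaries in PYGB, at 8.05, 8.14 and 13.2 FPKM against 7.38, 4.95 and 7.64, and without ZD8 these fold changes were 0.27, -0.45 and -0.05. Of 4 genes that control glycolysis 3 were lowest in ZD8, with TIGAR at 1.81 FPKM against 6.58 to 9.57, and TIGAR (-0.49 ± 0.50), PFKFB2 (-0.25 ± 0.33) and PFKFB4 (-0.04 ± 0.39) had the smallest p. All 3 changed sign without ZD8, to 0.12, 0.05 and 0.37.

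The hypoxia list as a whole was not low in ZD8, but some of its genes were. Of its 12 tested genes, 3 were lowest in ZD8 (HIF1A, EPAS1 and VEGFA) and 6 highest, with a median of 0.23 for ZD8 minus the median of the others, as over all tested genes. VEGFA was at 11.3 FPKM in ZD8 against 22.3 to 41.5 in the other ovaries, or -1.28 on that scale. HIF1A, the oxygen-regulated factor, was at 86.0, 159 and 126 FPKM in SLS and at 118, 100.5 and 62.1 in LLS, with a log2 fold change of -0.40 ± 0.38 (SE) and -0.13 without ZD8. EPAS1, its relative HIF2A, was at 122, 123 and 128 in SLS and at 202, 306 and 111 in LLS (0.61 ± 0.42), and without ZD8 it went to 0.998 ± 0.274 (unadjusted limma p of 0.0047, adjusted 0.310). ADM, a target, was at -0.36 ± 0.26, and at -0.41 without ZD8, with LLS ovaries that were all below the SLS ovaries.

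**Figure D5:**
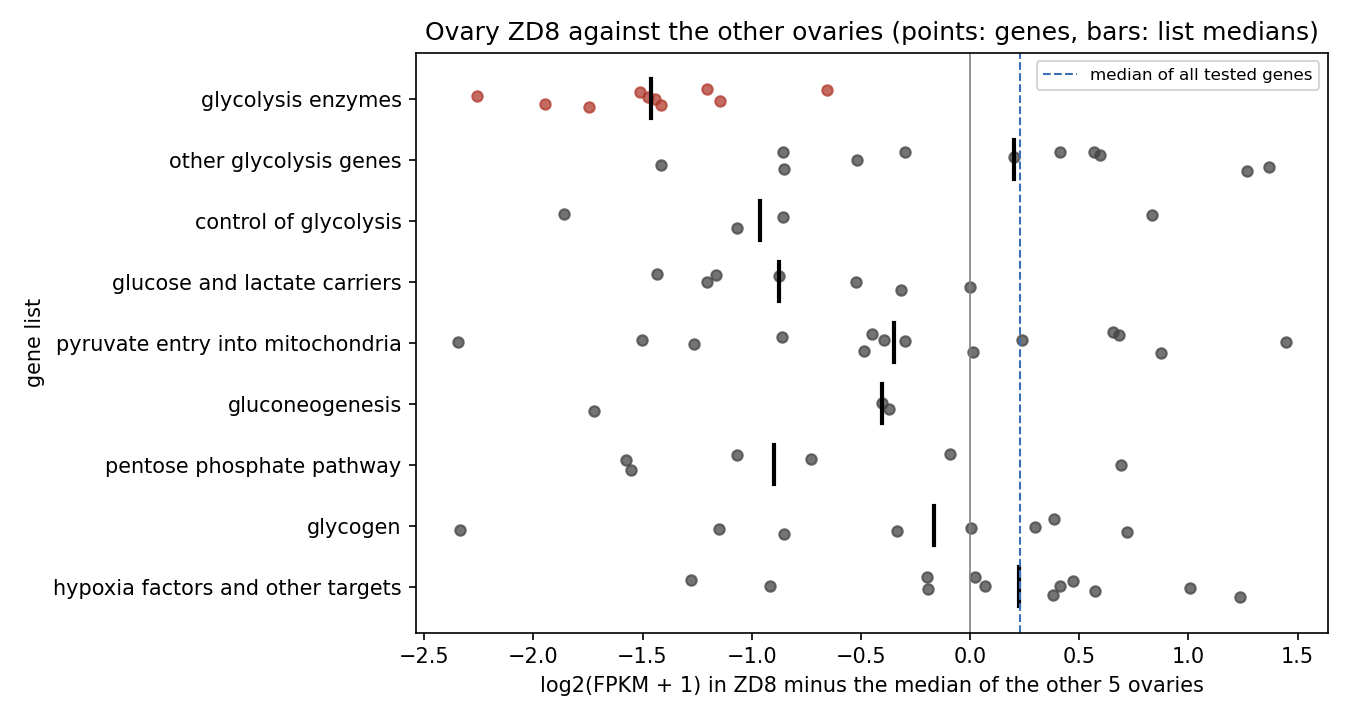
Log2(FPKM + 1) in ZD8 minus the median of the other 5 ovaries, with 1 point per tested gene, a bar at the median of each list and a dashed line at the median of all tested genes (0.23). All points of the 10 glycolysis enzymes lie below 0, with a median of -1.46, whereas those of the other glycolysis genes and of the hypoxia list lie on both sides.

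The genes whose pattern was most like that of the 10 enzymes were sought among 5888 others with a mean of at least 10 FPKM, by Pearson's r over the 6 ovaries with the mean of the enzymes' centred log2(FPKM + 1). They were FAM234A (r = 0.998), CS (0.998), ATP5H (0.998), PSMD2 (0.998) and DPP3 (0.997). CS, citrate synthase of the mitochondrion, was at 165, 138 and 145 FPKM in SLS and at 149, 172 and 54.2 in LLS. ATP5H, a subunit of ATP synthase, was at 156, 116 and 129 in SLS and at 123, 144 and 47.5 in LLS, and PSMD2, a subunit of the proteasome, at 139, 115 and 131 and at 128, 139.7 and 56.3. All 5 were lowest in ZD8, and in the 5 ovaries without it their r was between 0.9495 and 0.976. Those 5 ovaries were part of the choice of these genes, so the latter values are not a separate check.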

How the data were processed

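The gene libraries of 6 ovaries were used. The authors removed ribosomal RNA, trimmed the reads with NGSQCToolkit v2.3.3, mapped them to Sscrofa11.1 with HISAT2 (the submitters' processing notes give the build and aligner) and deposited FPKM values. The program that counted reads is not given in the sources used here. Whole reads came back for 23477 of 23564 genes above 0 (99.6%, within 0.001 of a read) with the longest RefSeq transcript (NCBI Annotation Release 106), and 29850 of 29884 symbols matched that annotation. A library's floor of 3 reads is 0.0493 to 0.0930 FPKM for a transcript of 1 kb.

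Groups follow the labels. All genes with at least 1 FPKM in at least 3 libraries entered limma 3.58.1 (R 4.3.3) with a trended variance on log2(FPKM + 1), with Benjamini-Hochberg adjustment, and a call needed an adjusted p under 0.05 together with a log2 fold change beyond 1 in either direction. The fit was tested on simulated data. Single values had exact permutation tests. The labels give no batches, and p-values measure the spread between these sows. The members, the pathway and marker lists and the tests were chosen with earlier results of these data known. Named genes are the 10 enzymes, the other isozyme genes of their steps, the 3 smallest p of each list and the 5 most alike genes; others named are cell type markers or genes picked after their values were seen. The alternatives were the pseudocount, filter, scaling, variance model, thresholds and each ovary left out. The small RNA table was not used here, and some genes of the lists are not reported here.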

Additional observations from a re-analysis of the deposited data

How the results depend on the processing

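None of the 10 enzymes was called under any alternative run. Over all genes, the count of 0 calls became 13 with array weights (ZD8 had a weight of 0.135), 99 with an unadjusted p, 10 without ZD8 after quantile normalization, and 0 to 20 when each ovary was left out, where the 20 came without ZD8. Other pseudocounts, filters and scalings kept the sign of all 10 fold changes, but quantile normalization shrank ALDOA from -0.29 to -0.07, PKM from -0.47 to -0.24, GPI to -0.29, GAPDH to -0.39 and ENO1 to -0.37. With array weights, which moved the median of all genes to -0.12, GPI went to 0.23, ALDOA to 0.10 and PGK1 to 0.045 on the log2 scale, HK2 from 0.35 to 1.06 and the median of the 10 to -0.10. Leaving out each ovary gave -0.86 to 0.30 for GPI, -0.62 to 0.24 for ALDOA, -0.68 to 0.058 for PGK1 and -0.025 to 0.97 for HK2, where the negative value came without ZD5, and -0.74 to -0.05 for the median of the 10. Without ZD8 and after quantile normalization, GPI was at 0.30, ALDOA at 0.29, GAPDH at 0.013 and PGK1 at 0.027. The share differences of HK1, ALDOA and ENO1 kept their sign under each alternative. That of ALDOA went from -3.02 to -1.66 with shares of reads, and those of the others without ZD8 went from -7.61 to -3.76 for HK1 and from -1.87 to -0.54 percentage points for ENO1. The LDHA share difference ran from -7.71 to 8.54 percentage points, with 1.204 without ZD3 and 8.54 without ZD8. Leaving out ZD8 leaves fewer samples, and beyond that the cause was not tested. No paired analysis was possible because the replicate numbers are in accession order. With 3 ovaries a group, changes of the size measured here could not be told from the spread between ovaries.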
